A study of Homo sapiens with 6 samples.

Results

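Transcripts of 10 integrin subunits were followed in A549 cells: ITGB3, its alpha partner ITGAV, the other beta subunits that can pair with alpha V (ITGB1, ITGB5, ITGB6 and ITGB8), the collagen, laminin and fibronectin receptor subunits ITGA2, ITGA3 and ITGA5, and ITGB4. They were matched by gene symbol, and all 10 were found among the 19470 symbols of the count table and among the 13336 genes with enough counts to be tested. The genes were chosen by their roles and by measured values of the same contrast, among them the rise of ITGB3, so their differences between the groups are given as a description and support nothing by themselves. A549 is a human lung adenocarcinoma line, wild type per the labels. RNA had been sequenced from 3 libraries of cells in an induced dormant state and 3 libraries of cells activated by osteoclast-conditioned medium. The sources used here do not give how dormancy was induced, whether the groups shared a base medium or whether libraries came from separate cultures. Errors and p-values therefore measure the spread among libraries alone, and that spread may be technical. In bulk RNA, fewer cells of a kind and less RNA per cell cannot be told apart.

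Integrins are cell surface receptors made of an alpha and a beta subunit, and the pair decides which matrix protein is bound. Alpha V joins several beta subunits into receptors for proteins carrying the RGD motif, such as fibronectin, vitronectin and osteopontin. The beta 3 form is known from osteoclasts, platelets and endothelium, the beta 5 form is common in epithelial lines, and the beta 6 and beta 8 forms are known for releasing active TGF-beta. Beta 1 pairs with many alpha subunits, including alpha 2 for collagen, alpha 3 for laminin and alpha 5 for fibronectin, while beta 4 pairs with alpha 6 in hemidesmosomes.

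The beta subunits differ in the cytoplasmic end that binds talin and kindlin, the proteins that switch integrins on. The last 150 coding bases of the 5 alpha V partners, without the stop codon, are shown because they group these subunits by a feature not used to choose them. They come from GENCODE v29 on GRCh38, at chr17:47307551-47310201 (plus strand), chr10:32901573-32908454 (minus), chr3:124763626-124764447 (minus), chr2:160101739-160107732 (minus) and chr7:20409749-20409994 (plus), introns between those ends left out. Capitals mark in-frame codons for the NPxY motif, known from the sites where talin (nearer the membrane) and kindlin (nearer the end) bind.
ITGB3: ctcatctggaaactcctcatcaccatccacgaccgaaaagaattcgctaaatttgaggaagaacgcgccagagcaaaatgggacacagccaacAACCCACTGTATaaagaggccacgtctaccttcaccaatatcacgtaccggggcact
ITGB1: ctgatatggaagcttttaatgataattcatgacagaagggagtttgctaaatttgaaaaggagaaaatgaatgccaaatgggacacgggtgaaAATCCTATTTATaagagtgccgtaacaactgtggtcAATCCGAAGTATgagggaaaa
ITGB5: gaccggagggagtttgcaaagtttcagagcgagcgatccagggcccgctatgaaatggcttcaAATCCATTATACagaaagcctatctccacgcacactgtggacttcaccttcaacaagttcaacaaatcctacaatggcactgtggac
ITGB6: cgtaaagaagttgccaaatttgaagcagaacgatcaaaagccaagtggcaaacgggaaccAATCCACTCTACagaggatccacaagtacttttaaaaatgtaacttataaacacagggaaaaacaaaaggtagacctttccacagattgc
ITGB8: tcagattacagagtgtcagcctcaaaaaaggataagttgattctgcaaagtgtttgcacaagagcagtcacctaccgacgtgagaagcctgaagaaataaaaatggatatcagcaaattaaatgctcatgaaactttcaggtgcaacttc

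ITGB3, ITGB5 and ITGB6 held 1 such match each, ITGB1 held 2 and ITGB8 held 0. Nearer the end, ITGB3, ITGB5 and ITGB6 hold in-frame codons for N and Y at the same spacing but without the proline. These were not counted, so 1 match does not mean that the kindlin site is absent. The first match began 57 bases before the stop codon in ITGB3 and ITGB1, 87 bases before it in ITGB5 and 90 before it in ITGB6. The NPxY motif, proline included, was found in the same window of 52 of 14380 genes (0.362%). Over the whole coding sequence, ITGB3 was 63.68% identical to ITGB5, 59.25% to ITGB6, 56.38% to ITGB1 and 55.05% to ITGB8, in global alignments. The longest identical run between any pair of these 5 was 23 bases, between ITGB3 and ITGB5.

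Total counts lay between 34128471 and 36667725 per library. Levels within a gene are CPM scaled by TMM factors, and fold changes are activated over dormant from edgeR's quasi-likelihood fit. With total counts as the scale in place of TMM, the log2 fold change of the median gene moved by -0.14, so differences of that size depend on the scale. The epithelial keratins KRT8 and KRT18 were abundant in both groups, at 1672 and 1039 CPM in dormant cells and 3460 and 1980 CPM in activated cells. KRT7 and KRT19 were abundant too, at 2165 and 478 CPM in dormant and 1929 and 435 CPM in activated cells. Libraries of the 2 groups overlapped for both genes. KRT7 was called lower in activated cells (edgeR quasi-likelihood adjusted p = 0.035) and KRT19 was not called (adjusted p = 0.185). CDKN2A, deleted in A549, had 1 dormant count and 0 activated counts. Of the adhesion marker EPCAM there were 145 dormant and 62 activated counts, and the lung markers SFTPB, SFTPC and NKX2-1 had 5 or fewer in either group. The lung marker NAPSA had 248 dormant and 164 activated counts. Of 11 tested A549 and epithelial markers, 6 were called higher and 2 lower at an adjusted p of 0.05, beside 36.5% and 37.2% of all tested genes.

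Of the 10 integrin genes, 8 were called higher and 1 lower in activated cells, where 73.7% of all tested genes were called at an adjusted p of 0.05, 36.5% higher and 37.2% lower. The groups did not overlap for 9 of the 10, against 76.5% of tested genes. The contrast is the one that proposed the genes, so nothing is read from these counts. ITGB3 stood far from the others, ITGB6 rose next, the alpha subunits rose between 1.67-fold and 2.78-fold, and ITGB1, ITGB4, ITGB5 and ITGB8 had the smallest differences.

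**Figure D1:**
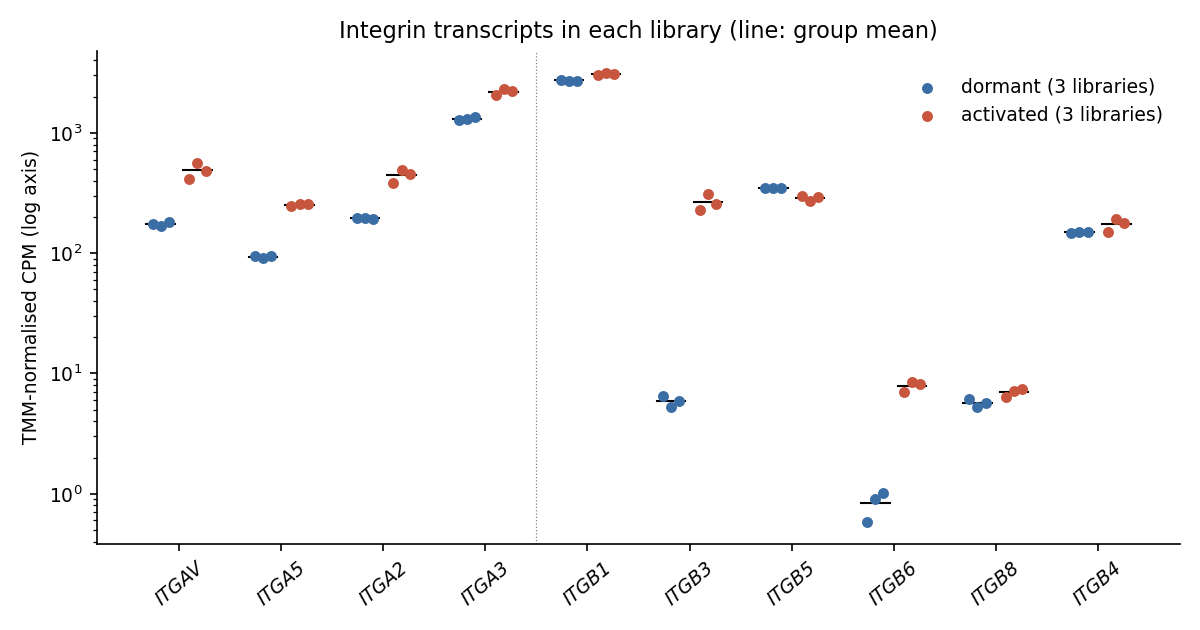
TMM-normalised CPM of the 10 integrin genes on a log axis, with 1 point for each of 3 dormant (blue) and 3 activated (red) libraries and a line at the group mean; alpha subunits stand left of the dotted line. ITGB3 went from 5.88 to 265 CPM on average, while ITGB1 went from 2729.6 to 3081 CPM and ITGB5 from 349.7 to 287 CPM.

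ITGB3, the beta 3 subunit (chromosome 17, 47253827 to 47313743), had 6.49, 5.27 and 5.87 CPM in dormant libraries 1 to 3 and 229.6, 310.5 and 255 CPM in activated libraries 1 to 3. The lowest activated library was far above the highest dormant one, and activated replicate 2 was the highest of all. The dormant values rested on 243, 205 and 210 counts and the activated ones on 7856, 10776 and 8368. The log2 fold change was 5.49 ± 0.12 (SE), a 45.1-fold rise, which ranked 28 of 13336 among rises. In GENCODE v29, 51.57% of the exon bases of ITGB3 are shared with AC068234.1, a coding gene on the same strand, and the sources used here do not say how such reads were counted.

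ITGB3 is also known as a transcript of osteoclasts, platelets and endothelium, so markers of these cells were measured beside it. The summed level of 12 listed osteoclast markers was 53.2 to 55.1 CPM in dormant and 23.1 to 24.8 CPM in activated libraries, and CALCR, DCSTAMP and OCSTAMP had 0 counts in every library. The marker calls given here stand beside 36.5% called higher and 37.2% called lower over all tested genes. Of the 7 osteoclast markers tested, 1 was called higher (MMP9) and 4 lower (ACP5, CTSK, NFATC1 and ATP6V0D2). Only 3 of the 7 had enough counts in both groups, since MMP9 had them in activated libraries alone, and ACP5, ATP6V0D2 and the uncalled OSCAR in dormant libraries alone, so the direction of those calls follows from the filter. The 10 megakaryocyte and platelet markers summed to 1.66 to 2.80 CPM in dormant and 2.77 to 4.03 CPM in activated libraries, with GP9 and TREML1 at 0 and ITGA2B, the platelet partner of beta 3, at 0.493 and 0.607 CPM. Among them PF4 went from 8 to 63 counts and PPBP from 1 to 43. The 9 endothelial markers summed to at most 1.27 CPM in any library, with TIE1, ERG and CLDN5 at 0 counts. The 14 myeloid markers summed to 137 to 150 CPM in dormant and 168 to 176 CPM in activated libraries, most of it CD68, and AIF1, TYROBP, C1QA, C1QB and C1QC had 0 counts. Of the 6 tested, 5 were called higher: CD14, from 1.10 to 9.25 CPM, CD68, ITGAM, CSF1R and LAPTM5, the last 2 with enough counts in activated libraries alone. The log2 fold change of CD68 was 0.17, and 0.033 with total counts, which ended its call. The 8 fibroblast and stromal markers summed to 7.21 to 7.75 CPM in dormant and 27.6 to 28.3 CPM in activated libraries, with THY1 at 1.33 and 16.2 CPM, and COL1A2 had 3 or fewer counts in each group. All 5 tested were called higher (COL1A1, LUM, THY1, DCN and PDGFRA), DCN and PDGFRA with enough counts in activated libraries alone. The myeloid and the fibroblast and stromal sums were thus higher in activated libraries and the osteoclast sum lower. Much of the osteoclast fall was ATP6V0D2, from 19.3 to 0.0707 CPM, which passed the filter by its dormant counts alone. No direction is read from the osteoclast sum, nor from the myeloid sum, most of which was CD68. The part of such cells in the ITGB3 result was not tested.

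ITGAV, the alpha V subunit (chromosome 2, 186590056 to 186680901), had 176, 168 and 183 CPM in dormant libraries and 417, 566 and 481 CPM in activated libraries 1 to 3. Its groups did not overlap, and activated replicate 2 was again the highest. The log2 fold change was 1.48 ± 0.08 (SE), or 2.78-fold. Per length, FPKM put ITGB3 at 0.0448, 0.0382 and 0.0390 of ITGAV in dormant libraries and at 0.668, 0.667 and 0.644 in activated ones. The activated ratio, picked out after its values were seen, thus had an SD of 0.0138 although ITGAV itself ranged from 55.1 to 74.7 FPKM over those libraries. The level of the ratio depended on the gene length used. From counts per GENCODE v29 exon length it was 0.0689, 0.0588 and 0.0600 in dormant and 1.03, 1.03 and 0.990 in activated libraries.

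ITGB6 (chromosome 2, 160099671 to 160200272), the epithelial partner of alpha V, had 22, 35 and 36 counts in dormant libraries and 240, 296 and 268 counts in activated ones. In CPM these were 0.588, 0.900 and 1.01 against 7.01, 8.53 and 8.17, without overlap. The log2 fold change was 3.24 ± 0.22 (SE), or 9.48-fold, at levels far below those of ITGB3. On the log2(FPKM + 1) scale without a filter its difference was 1.14, since that pseudocount shrinks low genes. In GENCODE v29, 20.6102% of its exon bases are shared with AC092153.1, a processed transcript on the same strand.

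ITGB5 (chromosome 3, 124761948 to 124901418) was the integrin gene that fell. It had 349.1, 349.8 and 350.3 CPM in dormant libraries and 297, 274 and 292 CPM in activated ones, without overlap. The log2 fold change was -0.28 ± 0.05 (SE), a 1.22-fold fall, and the value was -0.42 with total counts. ITGB8 (chromosome 7, 20329766 to 20415754) had 6.17, 5.27 and 5.65 CPM in dormant and 6.31, 7.15 and 7.49 CPM in activated libraries. Its groups did not overlap either, but the lowest activated value was close to the highest dormant one and the log2 fold change of 0.29 ± 0.15 (SE) did not pass the threshold. After a correction for gene length it did pass, at 0.43.

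Put together per length, the make-up of the beta pool that alpha V can draw on differed between the groups. Without ITGB1, which mostly serves other alpha subunits, ITGB5 made up 97.8% ± 0.14 (SD, n = 3) of the summed FPKM of ITGB3, ITGB5, ITGB6 and ITGB8 in dormant cells and 57.9% ± 4.70 in activated cells. ITGB3 made up 1.37%, 1.11% and 1.23% in dormant libraries and 36.0%, 45.1% and 38.8% in activated ones. ITGB6 went from 0.224% ± 0.058 to 1.53% ± 0.10, and ITGB8 from 0.695% ± 0.055 to 0.612% ± 0.044. The sum of the 4 rose from 83.9 ± 0.76 to 106 ± 4.28 FPKM, less than ITGAV did, so the sum over ITGAV went from 3.29 ± 0.14 to 1.66 ± 0.19. These shares lie within a library and do not depend on the scale between libraries.

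Which of ITGB3 and ITGB5 was the larger in activated cells depended on the gene length used. With the deposited FPKM, ITGB5 exceeded ITGB3 1.72, 1.17 and 1.52 times in activated libraries 1 to 3. The FPKM of ITGB3 was computed on 5941 bases and that of ITGB5 on 4469 bases, against 4394 and 6447 exon bases in GENCODE v29. With the GENCODE lengths, ITGB3 exceeded ITGB5 1.13, 1.67 and 1.28 times, and made up 56.1% ± 4.66 of the pool of 4. In dormant cells ITGB5 was the larger by far with either length.

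**Figure D2:**
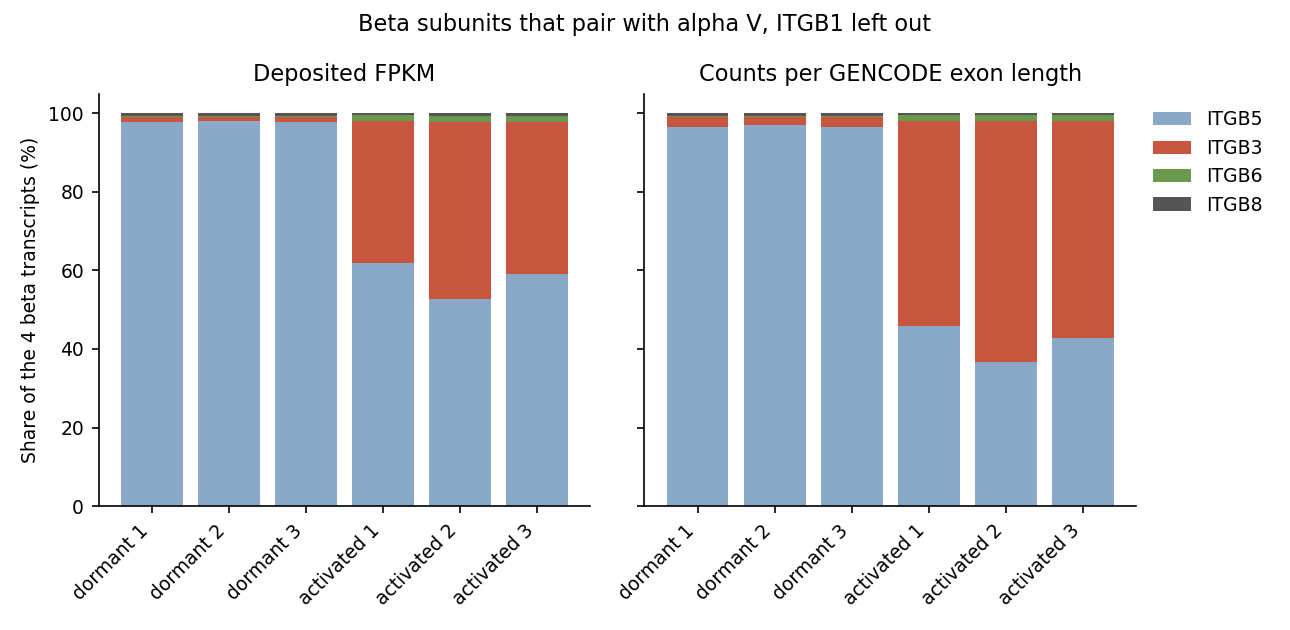
Share (%) of ITGB3, ITGB5, ITGB6 and ITGB8 in their summed level, 1 bar for each library, from the deposited FPKM (left) and from counts per GENCODE exon length (right). In dormant bars ITGB5 fills almost the whole height, and in activated bars ITGB3 takes 36.0% to 45.1% on the left and 52.1% to 61.2% on the right.

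ITGB1 (chromosome 10, 32900318 to 32958230), the common beta subunit, had 2772, 2719 and 2698 CPM in dormant and 3003, 3135 and 3106 CPM in activated libraries. The groups did not overlap, yet the log2 fold change was 0.17 ± 0.04 (SE) and 0.035 with total counts, which ended the call. Its share of the summed FPKM of the 5 alpha V partners was 89.5% ± 0.14 in dormant and 87.3% ± 0.23 in activated cells, while ITGB3 went from 0.130% ± 0.012 to 5.07% ± 0.68. ITGB1 transcripts are shared among many alpha subunits, so that pool is not a measure of alpha V receptors.

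The alpha subunits that pair chiefly with beta 1 rose. ITGA5, the fibronectin receptor subunit (chromosome 12, 54395261 to 54419266), had 94.2, 91.6 and 94.0 CPM in dormant and 248, 256 and 257 CPM in activated libraries, a 2.72-fold rise (log2 1.44 ± 0.05 SE). ITGA2, a collagen receptor subunit (chromosome 5, 52989352 to 53094779), had 195, 197 and 191 CPM in dormant and 384, 491 and 458 CPM in activated libraries, a 2.28-fold rise (log2 1.19 ± 0.07 SE). ITGA3, a laminin receptor subunit (chromosome 17, 50056110 to 50090481), had 1289, 1292 and 1349 CPM in dormant and 2052, 2302 and 2216 CPM in activated libraries, a 1.67-fold rise (log2 0.74 ± 0.05 SE). For each of these 3 genes every activated library was above every dormant one. Since ITGB1 hardly moved, the summed FPKM of ITGA2, ITGA3, ITGA5 and ITGAV over that of ITGB1 went from 0.495 ± 0.017 to 0.817 ± 0.039.

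ITGB4 (chromosome 17, 75721459 to 75757818), the hemidesmosome subunit, was the member whose groups overlapped. It had 146, 149 and 151 CPM in dormant and 150.1, 192 and 180 CPM in activated libraries, activated replicate 1 lying among the dormant ones. The log2 fold change was 0.23 ± 0.07 (SE), 0.09 with total counts, which ended the call, and 0.21 without activated replicate 3, which also ended it. Its partner ITGA6, a gene outside the 10, had 96.9 ± 1.98 CPM in dormant and 93.0 ± 4.23 CPM in activated cells (edgeR quasi-likelihood adjusted p = 0.318).

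**Figure D3:**
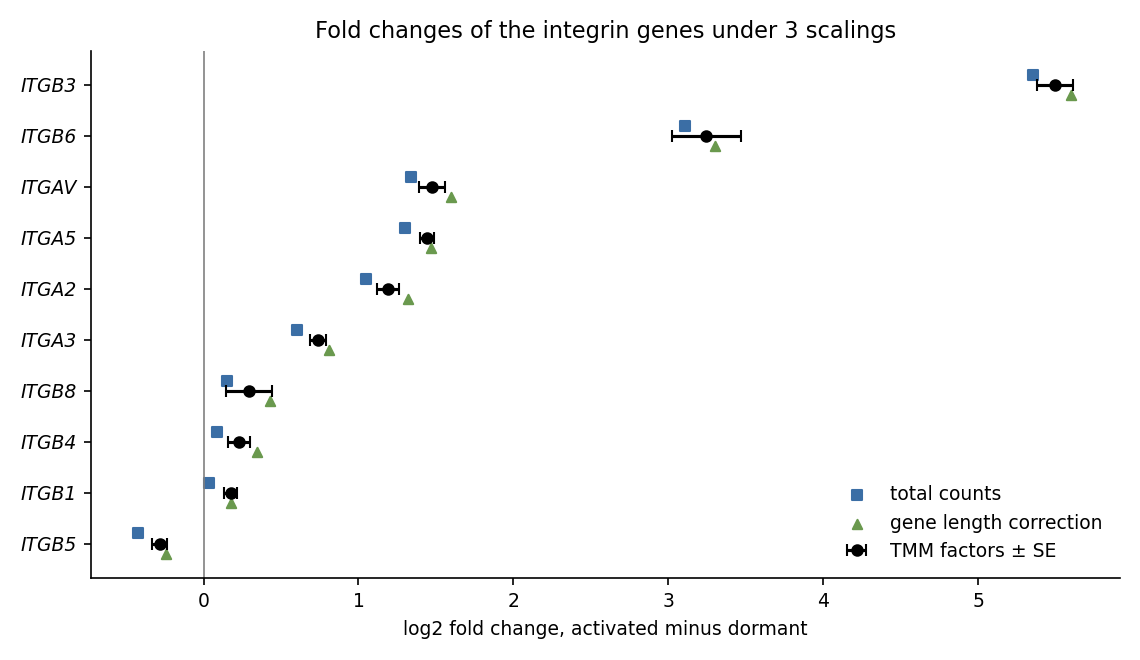
Log2 fold change, activated minus dormant, of the 10 integrin genes with TMM factors (black, ± SE), with total counts (blue squares) and after the correction for gene length (green triangles). No gene changes sign between these 3 fits, and ITGB1 and ITGB4 come close to 0 with total counts, at 0.035 and 0.09.

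Levels per length spanned a wide range. In dormant cells the mean FPKM ran in the order ITGB1 (713 ± 8.14), ITGA3 (279 ± 7.46), ITGB5 (82.1 ± 0.86), ITGA2 (26.0 ± 0.58), ITGAV (25.5 ± 0.99), ITGB4 (22.7 ± 0.52), ITGA5 (22.7 ± 0.16), ITGB3 (1.04 ± 0.098), ITGB8 (0.583 ± 0.041) and ITGB6 (0.188 ± 0.050). The libraries of ITGA2 and ITGAV overlapped, as did those of ITGB4 and ITGA5, and the other neighbours did not. In activated cells the order was ITGB1 (730.3 ± 16.8), ITGA3 (423 ± 24.7), ITGAV (64.4 ± 9.86), ITGB5 (61.3 ± 2.59), ITGA5 (55.9 ± 1.12), ITGA2 (54.0 ± 6.64), ITGB3 (42.5 ± 6.67), ITGB4 (24.1 ± 2.99), ITGB6 (1.62 ± 0.16) and ITGB8 (0.649 ± 0.056). There the neighbours ITGAV and ITGB5, ITGA5 and ITGA2, and ITGA2 and ITGB3 overlapped. ITGB3 was rank 8 in dormant and rank 7 in activated cells, and rank 3 in activated cells with GENCODE exon lengths. It was above 18.1% of tested genes in FPKM in dormant and above 88.8% in activated cells.

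The activated libraries differed among themselves more than the dormant ones for several integrin genes. The coefficient of variation of ITGAV was 4.41% in dormant and 15.2% in activated libraries, that of ITGA2 1.63% and 12.2%, and that of ITGB4 1.69% and 12.3%. ITGB6, with few dormant counts, ran the other way, at 26.2% and 10.0025%. For tested genes with at least 200 counts in every library the medians were 4.42% and 5.62%. Activated replicate 1 was the lowest of its group for 9 of the 10 genes and activated replicate 2 the highest for 7. ITGB5, the gene that fell, ran the other way, with replicate 1 highest and replicate 2 lowest. Replicate 1 was the lowest for 37.2% of all tested genes and for 50.1% of the 6755 tested genes at least as long as the shortest of the 10 integrin genes (4019 bases), so length moved with this order, and its part in the result was not tested.

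**Figure D4:**
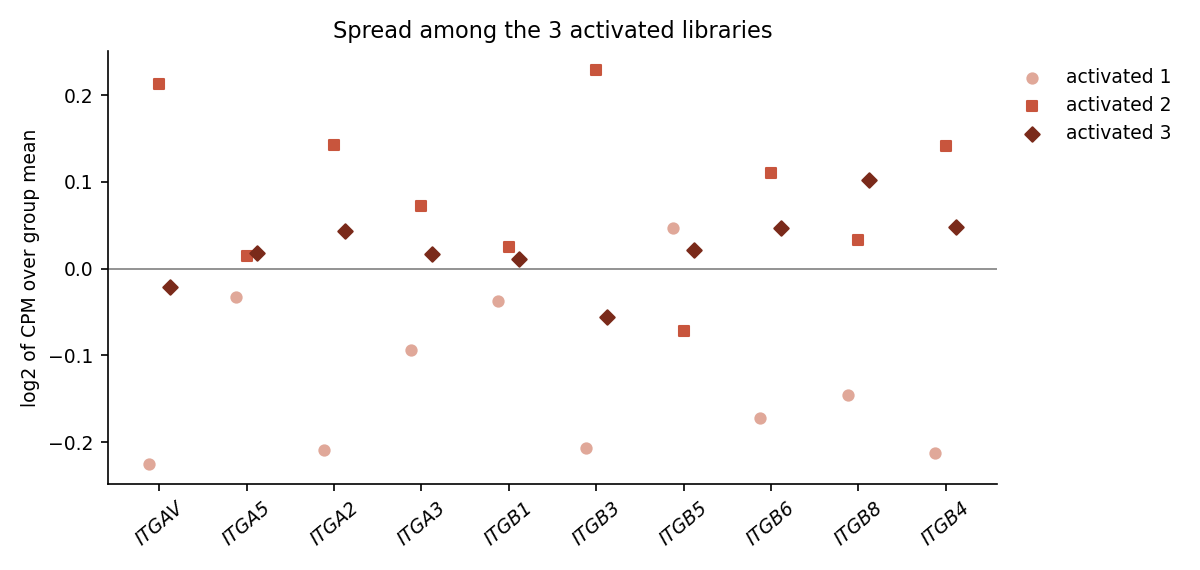
Log2 of each activated library's CPM over the mean of the 3 activated libraries, by gene. Replicate 1 (light circles) lies lowest for 9 of the 10 genes, by up to 0.23 for ITGAV, and ITGB5 shows the opposite order.

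Promoters were compared because ITGB6 and ITGA2 both rose, from very different dormant levels. This pair was thus picked by its values, and ITGAV and ITGA5 rose more than ITGA2 (2.78-fold and 2.72-fold against 2.28-fold). A link of promoter letters with level or rise was not tested. Windows of 250 bases before the first start listed for each gene were taken from RefSeq (GRCh38.p14) for 7 of the 10 genes. ITGB3, ITGA3 and ITGB4 were not matched. The ITGB8 window (chr7:20330650-20330899, plus strand) lies inside the gene, past its start at 20329766, so it does not describe sequence before the gene. The windows of ITGB6 (chr2:160200273-160200522, minus strand) and ITGA2 (chr5:52989102-52989351, plus strand) are shown, with capitals marking the GC box, GGGCGG or its reverse complement CCGCCC, and the TATA box, TATAAA or TTTATA.
ITGB6: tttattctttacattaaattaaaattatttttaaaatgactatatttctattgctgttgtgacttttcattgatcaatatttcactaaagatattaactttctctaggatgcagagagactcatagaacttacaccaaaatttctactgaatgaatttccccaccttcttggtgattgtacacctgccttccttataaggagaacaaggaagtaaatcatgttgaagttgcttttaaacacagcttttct
ITGA2: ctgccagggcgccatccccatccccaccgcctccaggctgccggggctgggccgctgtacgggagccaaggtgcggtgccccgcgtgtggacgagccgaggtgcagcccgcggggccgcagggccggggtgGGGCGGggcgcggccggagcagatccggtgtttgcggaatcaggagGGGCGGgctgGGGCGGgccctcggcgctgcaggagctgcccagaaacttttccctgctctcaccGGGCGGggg

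The ITGB6 window had a GC content of 30.0%, against a median of 58.0% over all 35116 windows, and held neither motif. The ITGA2 window had 76.4% GC and 4 GC boxes. The other 5 windows had between 52.8% (ITGB5) and 78.4% (ITGB1) GC. GC boxes numbered 3 in ITGB1, 2 in ITGB5, 2 in ITGB8, 1 in ITGA5 and 0 in ITGAV. A GC box was present in 42.64% of all windows and a TATA box in 10.72%, and none of these 7 first windows held a TATA box. The background counts every listed start, and ITGAV, ITGB1 and ITGB5 have further starts: the second window of ITGB1 had 41.6% GC and 3 TATA matches over both strands, overlaps included, and the third of ITGB5 had 75.2% GC and 3 GC boxes. A match is a description of the letters only.

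Of the other 16 integrin genes, 12 had enough counts to be tested, 3 were called higher and the other 9 did not pass. Over all tested genes 36.5% were called higher and 37.2% lower. The median log2 fold change of the 12 was 0.22, against -0.02 over all tested genes. ITGAE, the partner of beta 7, rose from 10.9 ± 0.89 to 19.8 ± 2.91 CPM, but 6.41% of its exon bases overlap HASPIN on the opposite strand. The leukocyte subunits ITGAM and ITGAX went from 3.39 ± 0.72 to 5.88 ± 0.78 CPM and from 8.88 ± 1.55 to 12.4 ± 1.92 CPM (edgeR quasi-likelihood adjusted p = 0.00191 and 0.0083). The ITGAX call ended with total counts (adjusted p = 0.0508), under which ITGA6 was called lower at a log2 fold change of -0.20. ITGB2, their beta partner, had 2.02 ± 0.67 and 2.06 ± 0.36 CPM (adjusted p = 0.93). ITGA1, ITGA4, ITGA7, ITGA10, ITGA11, ITGA2B and ITGB7 had means of at most 5.88 CPM in both groups and did not pass, with ITGA4 nearest to the threshold (adjusted p = 0.0598).

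The counts of the lists that follow stand beside shares of 36.5% called higher and 37.2% called lower over all tested genes, and with total counts 39.7% of all calls were higher, against 49.5% with TMM factors. Among 19 tested RGD ligands, 15 rose and 1 fell, with a median log2 fold change of 1.26. Chains of fibrinogen, a ligand of alpha V beta 3, led the list: FGB rose from 1.80 ± 0.31 to 55.2 ± 3.70 CPM and FGG from 3.91 ± 1.40 to 69.9 ± 4.01 CPM (edgeR quasi-likelihood adjusted p = 4.36e-14 and 3.63e-12). The RGD motif of fibrinogen lies in the FGA chain, which rose from 9.09 ± 1.96 to 103 ± 5.69 CPM and is named after its values were seen. SPP1, which encodes osteopontin, was the ligand that fell, from 569 ± 8.88 to 464 ± 23.4 CPM (adjusted p = 8e-05). FN1, which encodes fibronectin and is named here after its values were seen, rose 2.92-fold, and VTN, which encodes vitronectin, 3.17-fold. Of 17 collagen and laminin genes, 13 rose and 2 fell (median 0.61). COL5A1 and COL5A2 rose 7.44-fold and 6.88-fold, while the laminin chains LAMA4 and LAMB3 fell 1.45-fold and 1.34-fold.

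Of 36 integrin activation and adhesion adaptors, 22 rose and 5 fell (median 0.23), beside 36.5% and 37.2% over all tested genes. With total counts the numbers became 17 and 10. The kindlin FERMT3, among the 22, had enough counts in activated libraries alone. The tensins TNS4 and TNS1, which bind beta tails, rose 7.33-fold and 4.67-fold. The adaptor LIMS1 fell 2.09-fold and the kindlin FERMT2 1.46-fold. Of 14 inhibitors and traffic factors, 6 rose and 4 fell (6 and 6 with total counts), close to the shares of 36.5% and 37.2% over all tested genes. DOK1, which competes with talin, rose 1.86-fold and SNX17, a recycling factor for beta 1, 1.70-fold, and 7.08% and 8.05% of their exon bases overlap coding genes on the opposite strand. RAB11FIP1, a recycling factor, fell 2.27-fold and the clathrin adaptor DAB2 1.89-fold.

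Of 17 hemidesmosome and membrane partners, 11 rose and 5 fell (median 0.52), beside 36.5% and 37.2% over all tested genes. CD151, a tetraspanin partner of alpha 3 beta 1 and alpha 6 beta 4, rose 2.65-fold, with 6.53% of its exon bases overlapping POLR2L on the opposite strand. CAV1, which encodes caveolin, rose 2.44-fold. SLC3A2, which encodes CD98, a partner of beta 1 and beta 3 tails, fell from 932 ± 21.2 to 305 ± 6.07 CPM, and DST, which encodes a hemidesmosome linker, fell 1.36-fold. ENG, named after its values were seen, had 57 dormant and 2 activated counts, and it passed the filter only through the dormant group.

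**Figure D5:**
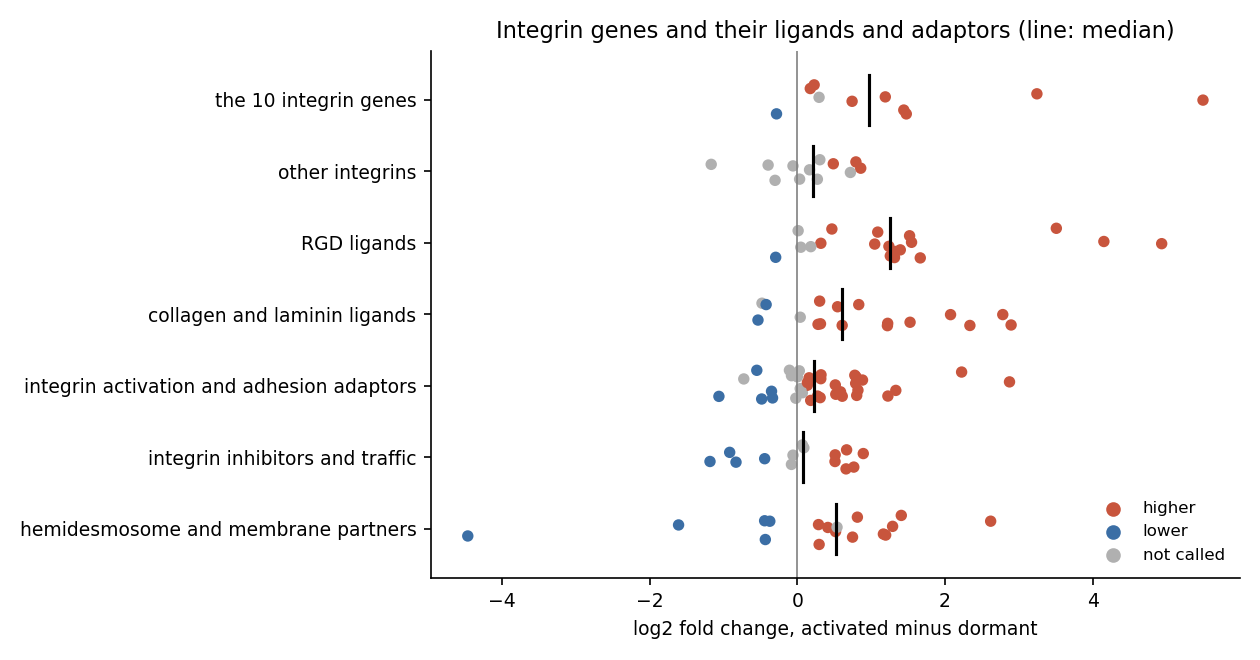
Log2 fold change, activated minus dormant, of each tested gene of the 7 groups, red where called higher, blue where called lower, grey where not called, with a black line at the median. The medians are 0.97 for the 10 integrin genes, 0.22 for the other integrins and 1.26 for RGD ligands, and the blue point near -4.5 is ENG.

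The genes whose log2 CPM profile over the 6 libraries, centred on its mean, lay nearest to that of ITGB3 were P2RY6, S100A9, KRT6A, SLC6A14 and SPINK6, at root mean square differences of 0.17, 0.25, 0.32, 0.34 and 0.39. Over 6 libraries in 2 groups this likeness is mostly the size of the group difference. P2RY6, a nucleotide receptor, went from 69, 42 and 53 counts to 1730, 2211 and 1968. S100A9 and KRT6A had 0 counts in all dormant libraries, and 81, 134 and 120, and 53, 94 and 43, in activated libraries 1 to 3, so the count added before taking logs sets their place in this order. P2RY6 alone of the 5 had enough counts in both groups, and the other 4 passed the filter by their activated counts. Only 2 of the 5 remained among the nearest 5 without dormant replicate 2, and 2 without activated replicate 2.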

How the data were processed

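Total RNA of 6 A549 libraries had been sequenced. The submitters' processing notes name fastp, HISAT2 and HTSeq, with GRCh38 as the build. Versions, annotation and strand use: not given in sources used here. One deposited table gives raw counts by symbol. The other table deposited by the authors gives FPKM, which equalled the counts divided by a gene length and the library's total count.

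Counts were tested with edgeR 4.0.16 (R 4.3.3): TMM factors, the default filter by group, the quasi-likelihood test and Benjamini-Hochberg adjustment over all 13336 genes kept, with a threshold of 0.05. SE was derived from the fold change and F. The procedure was tested on simulated data in which a small part of the genes differed, against 73.7% of tested genes called here. Its error rate in these data is therefore not known from that test. The genes and lists were chosen with earlier results of these data known. Named were all 10 integrin genes, the other integrins tested, the 2 largest rises and falls of each list (called, no overlap, mean log2 CPM of at least 2) and the 5 genes nearest to ITGB3. Alternatives used other scalings, filters, units (limma 3.58.1 on log2(FPKM + 1) or log2(FPKM + 0.1)), DESeq2 1.42.0, a length correction, a replicate block and fewer libraries. Totals were 34128471 to 36667725 counts. Coordinates are 1-based, of genes and promoters from RefSeq GRCh38.p14 and of coding ends from GENCODE v29.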

Additional observations from a re-analysis of the deposited data

How the results depend on the processing

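Over 18 alternative fits, the 10 integrin genes gave 180 log2 fold changes, of which 0 reversed. ITGB3 lay between 4.41 and 5.60, ITGAV between 1.29 and 1.60 and ITGB5 between -0.42 and -0.24. Calls ended in 9 values, all of ITGB1 and ITGB4, and ITGB8 gained a call after the length correction. The number of genes called higher was 6 to 9 of the 10. The share of ITGB3 among the 5 alpha V partners was 0.190% in dormant and 7.25% in activated cells from counts not divided by length, 1.24% and 39.95% with ITGB1 not counted, and 0.262% and 9.71% with GENCODE exon lengths, an alternative chosen after the data were seen, under which ITGB3 ranked 3 by level in activated cells.

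Other integrins called higher numbered 5 after the length correction, and 1 was called lower with total counts or in any fit on FPKM. Adaptors called lower were 10 with total counts and 8 in each fit on FPKM, and RGD ligands called lower were 2 with total counts or in the filtered fits on FPKM. ITGA6 turned to 0.044 after the length correction. ITGB2 turned to -0.11 with total counts, -0.038 on log2(FPKM + 1) with or without the filter, -0.070 on log2(FPKM + 0.1) and -0.0025 after the length correction. With 1 library left out, ITGA10 ran from -0.75 to 0.12, ITGA11 from -0.095 to 0.46 and ITGB2 from -0.15 to 0.33; the sign turned without dormant replicate 2 for all 3, and for ITGB2 also without dormant replicate 1 or activated replicate 2. None of these 4 passed the threshold with TMM factors and all libraries, and the cause was not tested. Of the 5 genes nearest to ITGB3, 2 to 5 were kept when 1 library was left out.

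The labels number the libraries 1 to 3 in both groups. Deviations of libraries with the same number correlated at -0.0152, 0.019 and -0.0057, and the libraries were treated as unpaired. With the replicate block 9789 genes were called, against 9830, and the integrin genes called were again 8 higher and 1 lower. ITGB6 rested on 22 to 36 counts in each dormant library, and ITGB7 on 0 to 22 counts in each library.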
